A study of Mus musculus with 12 samples.

Results

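The expression of 10 genes of the Notch pathway was examined in the mouse osteosarcoma cell lines Dunn and LM8: the receptors Notch1, Notch2, Notch3 and Notch4, the ligands Jag1, Jag2 and Dll1, and the target genes Hes1, Hey1 and Heyl. Their 12 probes were taken, by the transcript accession the array gives each probe, from 39429 non-control probes that covered 20144 matched genes. Dunn is an osteoblastic osteosarcoma line of low metastatic potential, and LM8 was derived from it by selection in vivo for increased metastasis. Untreated cells were compared at early passage (passage 25 for Dunn, 24 for LM8) and at late passage (86 for Dunn, 91 for LM8), with 3 Agilent 1-colour arrays for each of the 4 groups. Late cells descended from the early ones, and all cells were thawed and grown under the same conditions before the RNA was extracted. Each of the 4 groups came from 1 cell line, so the 3 arrays of a group measured independent cultures of that line and not separate tumors or separately selected sublines.

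Notch receptors are cut by furin on their way to the cell surface, where they bind Jagged or Delta-like ligands on a neighbouring cell. Ligand binding leads to cleavage by ADAM proteases and by gamma-secretase. The released intracellular domain enters the nucleus, joins RBPJ and Mastermind proteins, and turns on Hes and Hey genes, which encode transcriptional repressors. In bone, Notch signaling is known to restrain osteoblast maturation, and it has been studied in osteosarcoma.

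Early Dunn arrays were dimmer than all LM8 arrays, and the ranges of late Dunn and early LM8 overlapped. The 75th percentile of the processed signal lay between 287.2 and 603 on early Dunn arrays, 685.9 and 961.4 on late Dunn, 893 and 1316 on early LM8, and 1166 and 1903 on late LM8 arrays. Between 39.1% and 59.7% of the probes of an array were well above background, a call made by the scanner software. Each group took the same position on each of 3 slides of 4 arrays, so position and group cannot be told apart. Replicate 1 of late Dunn stood apart from its group (correlation 0.919 and 0.923 with the other two arrays, against at least 0.961 within every other group). Of 8 matched osteoblast genes, Runx2, Sp7, Col1a1 and Ibsp were well above background on all 12 arrays. In early Dunn, late Dunn, early LM8 and late LM8, Alpl was so on 2, 3, 3 and 3 arrays and Col1a2 on 1, 2, 2 and 3. Spp1 was so on 2, 2, 3 and 3 arrays and Sparc on 2, 2, 2 and 3. An array whose spot was marked as an outlier was not counted as well above background. Markers of other cell types were mixed. Of 4 endothelial genes, Kdr was well above background on all arrays, Pecam1 on 0, 2, 2 and 3 arrays of early Dunn, late Dunn, early LM8 and late LM8, Tek on 1 late Dunn array and Cdh5 on none. Of 4 epithelial genes, Cdh1 and Krt8 were so on none, Epcam on 1 late Dunn and 1 early LM8 array, and Krt18 on 1 late Dunn array. Of 3 matched blood cell genes, Itgam was so on all arrays, and Ptprc and Adgre1 on 1 array of each LM8 group. The part of such cells in the results was not tested.

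Values below are log2 signals relative to the array's own 75th percentile, so that 0 is the level of that percentile, and a difference of 1 is a 2-fold difference. Levels of different genes are not set against each other, since each probe has its own brightness. Tests were fitted with limma over all probes, and adjusted p-values were corrected over all probes by the Benjamini-Hochberg method. A gene was called when its adjusted p was under 0.05. In cultures measured in bulk, fewer cells that express a gene and less RNA in each cell cannot be told apart.

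On these arrays 7 of the 10 genes had a measurable level. Notch1, Notch3, Notch4 and Jag1 were well above background on 11 of 12 arrays, Jag2 on 10, Hey1 on all 12, and Notch2 on the 10 arrays where its brighter probe was not marked as an outlier spot. The array that fell short for Notch1, Notch3, Notch4 and Jag1 was early Dunn replicate 1. Dll1 was well above background on late LM8 replicates 2 and 3 alone, Hes1 on late LM8 replicate 2 alone, and Heyl on no array. Array by array, Jag1 and Hey1 stood out by line, while the receptors overlapped between the lines in most comparisons.

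**Figure D1:**
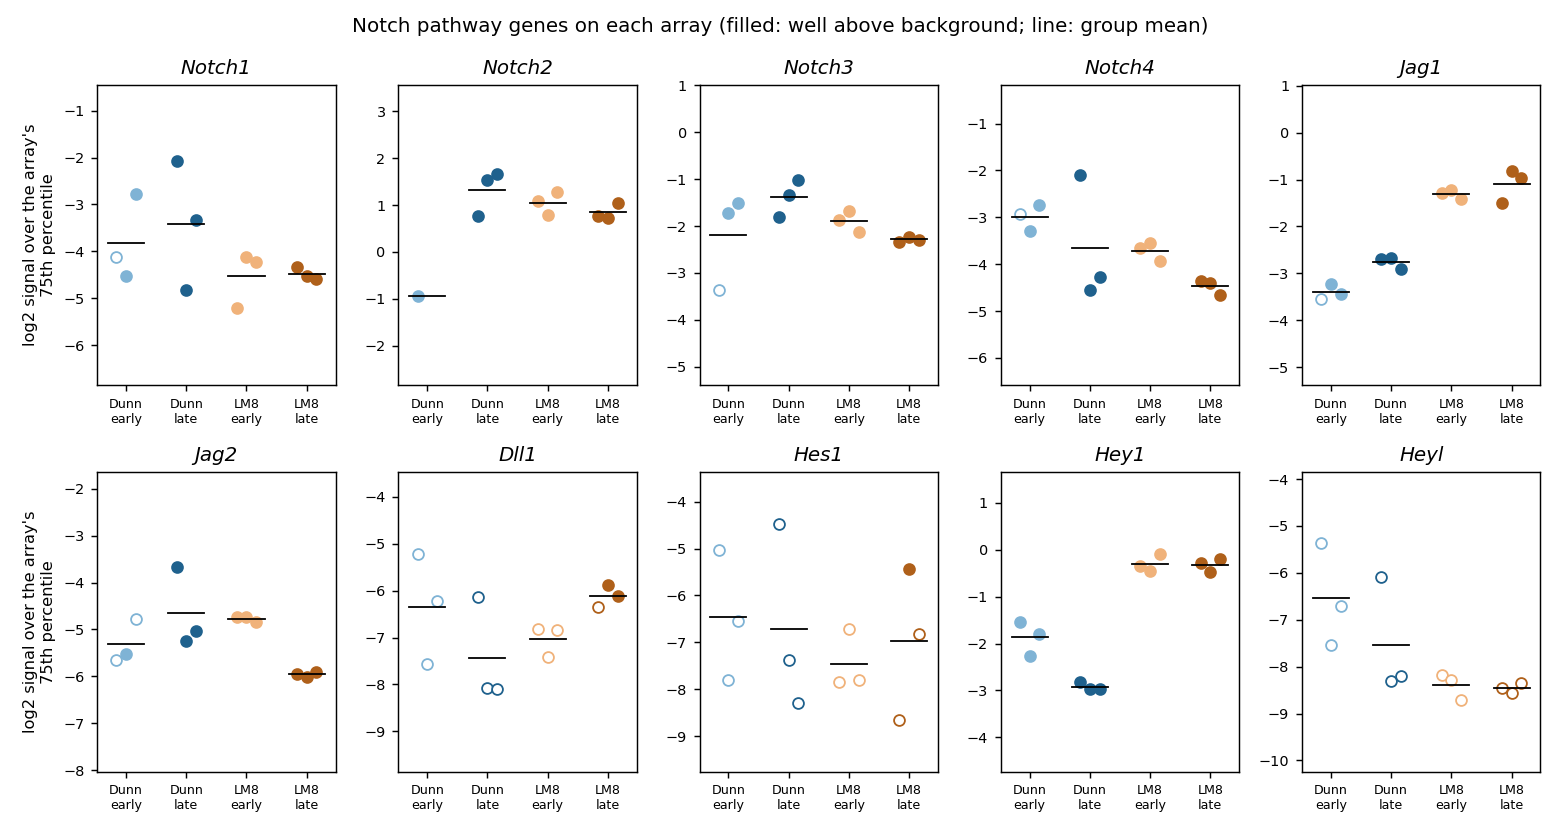
Log2 signal over the array's 75th percentile (y axis of each panel) for the 10 Notch pathway genes in 4 groups of 3 arrays; filled points are well above background, open points are not, and lines are group means. All 6 LM8 arrays lie above all 6 Dunn arrays for Jag1 and Hey1, and Dll1, Hes1 and Heyl are nearly all open points. On this scale the late LM8 arrays are the lowest for Jag2, where early Dunn has only replicate 2 filled.

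Notch1, a receptor with a broad role in cell fate, read -4.12, -4.54 and -2.78 in early Dunn cells, -2.08, -4.83 and -3.34 in late Dunn, -5.22, -4.12 and -4.22 in early LM8, and -4.34, -4.53 and -4.59 in late LM8. The 3 late LM8 values were tight, whereas the Dunn values spread over more than 2 units and overlapped with LM8. In the 4 comparisons of single passages, LM8 differed from Dunn by between -0.67 and -1.10, with adjusted p from 0.277 to 0.535 by limma. A second Notch1 probe was well above background on 2 of 12 arrays.

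Notch2, the receptor whose activating mutations cause a skeletal disorder, was read by a pair of probes that did not behave alike. The brighter one gave 0.76, 1.54 and 1.66 in late Dunn, 1.08, 0.78 and 1.27 in early LM8, and 0.76, 0.72 and 1.05 in late LM8 cells. Of the early Dunn arrays only replicate 1 gave a value, -0.94, since the spots of replicates 2 and 3 had been marked as outliers, so every fit with early Dunn used 1 array for this gene. With those spots kept, early Dunn read -1.001, 1.01 and 1.30, and replicates 2 and 3 then lay among the other groups. The call of Notch2 as higher in late LM8 than in early Dunn (difference 1.78, adjusted p = 0.0321) therefore rested on 1 array, and the difference was 0.38 (adjusted p = 0.644) with the outlier spots kept. The dimmer Notch2 probe was lower in LM8 with passages pooled, by -1.28 (SE 0.33, adjusted p = 0.0199), with values from -2.48 to -4.05 in Dunn and from -3.96 to -5.07 in LM8 that overlapped. The direction of a line difference in Notch2 was thus not settled by these probes.

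Notch3, which is known from vascular smooth muscle, read -3.37, -1.72 and -1.50 in early Dunn and -1.81, -1.34 and -1.01 in late Dunn cells. In LM8 it read -1.87, -1.68 and -2.12 early and -2.34, -2.23 and -2.29 late. Late LM8 lay below late Dunn without overlap, but the difference of -0.90 (SE 0.28) did not pass the test (adjusted p = 0.179).

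Notch4, a receptor best known from endothelium, read -2.93, -3.29 and -2.74 in early Dunn and -2.09, -4.56 and -4.28 in late Dunn, where replicate 1 stood more than 2 units above the others. In LM8 the values were -3.65, -3.55 and -3.94 early and -4.36, -4.39 and -4.66 late. On this scale each LM8 group lay below early Dunn with no overlap, and late LM8 was lower than early Dunn by -1.49 (SE 0.29, adjusted p = 0.0239, 2.80-fold). This call was lost when early Dunn replicate 3 (adjusted p = 0.0697) or any of the late LM8 replicates 1 to 3 (0.0596, 0.0939 and 0.0854) was left out, and on the deposited values without scaling the difference was 0.35. The other 3 single-passage differences of Notch4 ranged from -0.07 to -0.83 and were not called. Before scaling, the early Dunn signals of Notch4 (50.6, 61.8 and 43.1) were below those of early LM8 (71.3, 112.4 and 78.8). The rank of early LM8 against early Dunn thus depended on the scaling. Early against early, Notch4 was at -0.73 and the median over all genes at -0.76. For late LM8 against early Dunn that median was -0.91.

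Among the ligands, Jag1 was higher in LM8 cells at both passages. Jag1 encodes a membrane-bound Notch ligand that acts on neighbouring cells and is expressed in the osteoblast lineage. It read -3.54, -3.23 and -3.44 in early Dunn, -2.70, -2.67 and -2.91 in late Dunn, -1.29, -1.23 and -1.41 in early LM8, and -1.50, -0.82 and -0.96 in late LM8 cells. All 6 LM8 arrays were above all 6 Dunn arrays, and the gap between the nearest pair was larger than the range within any group. The share of all genes that separate the lines in this way is not given.

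With passages pooled, Jag1 was 3.68-fold higher in LM8 than in Dunn cells (log2 difference 1.88, SE 0.22, 95% interval 1.41 to 2.35, 6 arrays against 6, adjusted p = 0.000164). In single passages the difference was 2.10 early against early (adjusted p = 0.0144), 1.67 late against late (0.0419), 1.45 for early LM8 against late Dunn (0.0368) and 2.31 for late LM8 against early Dunn (0.00855). These 4 comparisons share arrays and are not independent of each other. The group means ordered as -3.40 ± 0.16 (SD, n = 3) in early Dunn, -2.76 ± 0.13 in late Dunn, -1.31 ± 0.09 in early LM8 and -1.09 ± 0.36 in late LM8. The first pair of neighbours did not overlap but did not pass the test, and the last pair overlapped.

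Sequences at the starts of the Jagged genes are shown because Jag1 and Jag2 are the ligands whose levels differed between groups. RefSeq windows of the GRCm38.p6 build, from 250 bases before the annotated start to 50 after it, were at hand for 7 of the 10 genes, and not for Hes1, Hey1 and Heyl. Both genes lie on the minus strand, and the windows are chr2:137116471-137116770 for Jag1 and chr12:112929446-112929745 for Jag2. They are written 5′ to 3′ along the gene, with capitals at each match to CACGCG on either strand, the class C site that Hes-type repressors can bind.
Jag1: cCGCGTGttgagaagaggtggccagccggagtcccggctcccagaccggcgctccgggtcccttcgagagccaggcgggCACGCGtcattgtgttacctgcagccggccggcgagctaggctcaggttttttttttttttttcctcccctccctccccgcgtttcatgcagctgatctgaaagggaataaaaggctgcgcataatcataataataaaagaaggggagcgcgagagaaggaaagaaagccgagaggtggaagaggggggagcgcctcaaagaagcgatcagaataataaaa
Jag2: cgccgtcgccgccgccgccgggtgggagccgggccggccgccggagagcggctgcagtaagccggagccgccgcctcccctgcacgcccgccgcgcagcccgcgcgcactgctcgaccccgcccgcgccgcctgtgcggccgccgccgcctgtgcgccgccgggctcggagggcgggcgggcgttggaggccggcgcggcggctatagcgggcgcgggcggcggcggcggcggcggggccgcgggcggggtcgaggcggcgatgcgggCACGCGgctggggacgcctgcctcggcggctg

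The Jag1 window held 2 matches to the class C site, 249 bases before the start on the opposite strand and 171 bases before it on the same strand. Jag2 held 1 match, 18 bases after the start. The 7 genes had 8 windows, since Dll1 has a second annotated start. Among the other members, the Notch2 window and the more upstream Dll1 window held 1 match each, and the other Dll1 window held none. Of all 32851 windows of this length, 9.27% held at least 1 on either strand. TGGGAA, the core of the RBPJ site, was in 25.6% of all windows, and CACGTG, an E-box, in 7.15%; neither was in any window of the members. The letters G and C made up 55.7% of the Jag1 window and 86% of the Jag2 window, against a median of 52.7% over all windows. The arrays measured no binding, so these matches are descriptions of the sequence.

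Jag2, the second Jagged ligand, read -5.66, -5.52 and -4.79 in early Dunn, with replicate 2 alone well above background, and -3.66, -5.24 and -5.04 in late Dunn. In LM8 it read -4.73, -4.73 and -4.84 early and -5.95, -6.01 and -5.91 late, with all 6 arrays well above background. On this scale the late LM8 values were the lowest of the 4 groups, and no value of another group reached down to them. Before scaling, the early Dunn signals (7.67, 13.1 and 10.4) were below those of late LM8 (18.9, 29.5 and 22.6). The rank of late LM8 against early Dunn thus depended on the scaling of dim signals. With passages pooled, the lines did not separate (difference -0.38, SE 0.38, adjusted p = 0.417).

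Dll1, a Delta-like ligand, was represented by 1 probe spotted 10 times. It was well above background on late LM8 replicates 2 and 3, at -5.88 and -6.12. Late LM8 replicate 1 and all early LM8 arrays were not well above background, so no fold is given, and the fitted difference was not called (adjusted p = 0.168).

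Among the targets, Hey1 was higher in LM8 than in Dunn cells at both passages, like Jag1. Hey1 encodes a basic helix-loop-helix repressor that is a direct target of Notch and is known to affect osteoblast maturation. The signal was -1.55, -2.26 and -1.80 in early Dunn, -2.81, -2.98 and -2.97 in late Dunn, -0.36, -0.44 and -0.09 in early LM8, and -0.27, -0.48 and -0.19 in late LM8 cells. All arrays were well above background, and the lowest LM8 array was more than 1 unit above the highest Dunn array. The group means were -2.92 ± 0.10 in late Dunn, -1.87 ± 0.36 in early Dunn, -0.32 ± 0.15 in late LM8 and -0.30 ± 0.18 in early LM8, and the LM8 groups overlapped.

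With passages pooled, Hey1 was 4.25-fold higher in LM8 (log2 difference 2.09, SE 0.27, 95% interval 1.497 to 2.68, adjusted p = 0.000426). The difference was 2.60 late against late (adjusted p = 0.00509), 2.62 for early LM8 against late Dunn (0.00628) and 1.55 for late LM8 against early Dunn (0.0243). Early against early it was 1.57, with the groups apart, and missed the threshold (adjusted p = 0.0531). Fits that left out each of the 12 arrays in turn kept both pooled calls, with differences of 1.79 to 1.96 for Jag1 and 1.97 to 2.26 for Hey1. Within each slide Jag1 was higher in LM8 by 2.25, 2.01 and 2.03 early against early and by 1.20, 1.85 and 1.95 late against late. For Hey1 the within-slide differences were 1.19, 1.81 and 1.71 early against early, and 2.54, 2.50 and 2.78 late against late.

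The single-passage calls were less stable than the pooled ones. With the slide as a block, Jag1 had adjusted p = 0.0793 early against early, 0.169 late against late and 0.184 for early LM8 against late Dunn, and Hey1 had 0.084, 0.0842 and 0.0986; the comparison of late LM8 with early Dunn stayed called for Jag1 (0.00655) and Hey1 (0.0109). Under normexp background correction Jag1 and Hey1 were higher in LM8 by 0.47 and 0.86 early against early and by 0.53 and 0.73 for late LM8 against early Dunn, with neither called. Jag1 also lost its call there late against late (1.05, adjusted p = 0.0794) and for early LM8 against late Dunn (0.98, 0.0534), whereas Hey1 kept both (1.93 and 2.06). Differences in signal between the lines moved with these results, since most Dunn arrays were dimmer than the LM8 arrays, and their part was not tested.

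**Figure D2:**
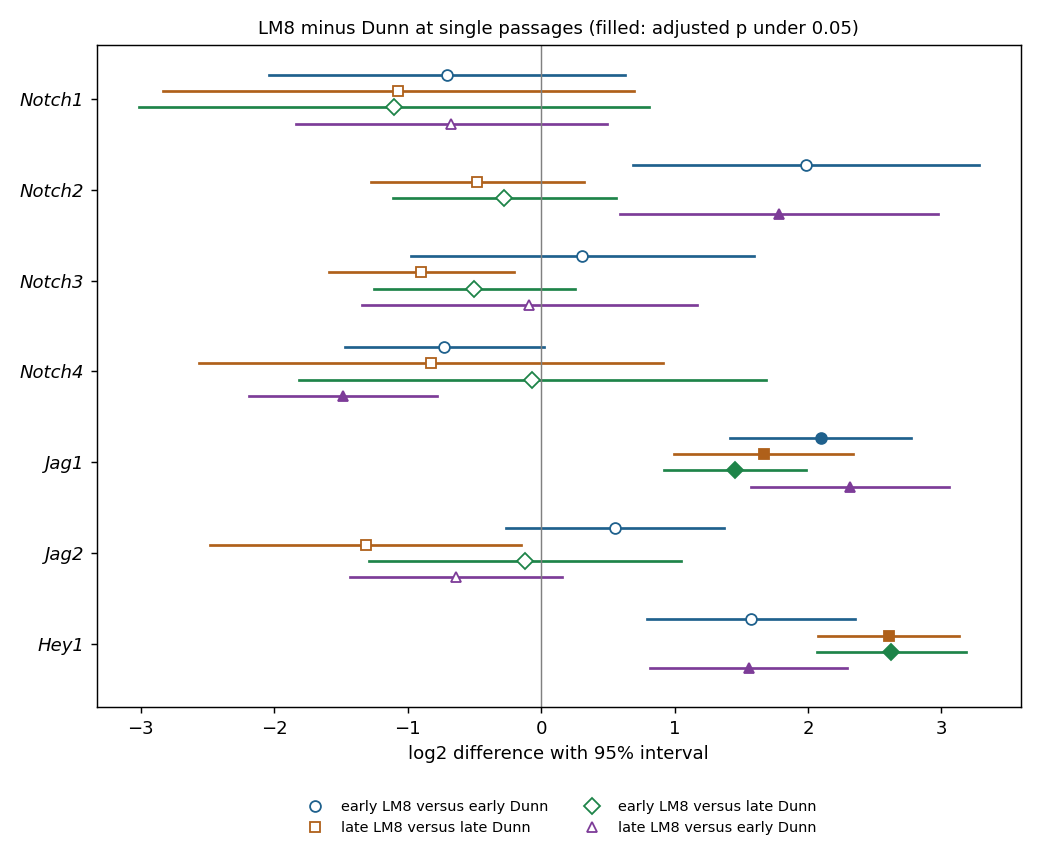
Log2 difference, LM8 minus Dunn, with its 95% interval (x axis) for the 7 measured genes in the 4 comparisons of single passages, which share arrays; filled symbols have adjusted p under 0.05. Jag1 is filled in all 4 comparisons and Hey1 in 3, all to the right of 0. For late LM8 against early Dunn, Notch4 is also filled, to the left of 0, and Notch2, to the right. The Notch2 symbols against early Dunn rest on 1 early array. The open symbols of Notch1 lie left of 0 with intervals that cross it.

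Hes1, the classic Notch target, and Heyl, a relative of Hey1, gave no usable levels. Hes1 signals ranged from -4.47 to -8.65 with 1 array well above background. Heyl was called lower in LM8 with passages pooled (adjusted p = 0.0338), yet it was well above background on no array, so no level or fold is given. Its call was lost when any of 7 single arrays was left out. The epithelial genes Cdh1 and Krt8, also well above background on none, were called lower in the same comparison (-1.73 and -2.16).

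Set against all genes, the number of calls among the 10 was not large. With passages pooled, 3 of the 10 were called (Jag1 and Hey1 higher, Heyl lower), against a background of 43.6% of all 20143 genes tested. In the direction of Jag1 and Hey1 the background was 5.71% higher, since 37.9% of the genes were called lower. That split depends on the scaling: of all calls 13.1% were higher here, 28.9% with quantile normalization, 6.7% with normexp and 94% on the deposited values without scaling. The median over all genes was -0.66, that over the 10 was -0.34, and Jag1 and Hey1 lay above both. Under each of those scalings Jag1 and Hey1 were called higher with passages pooled.

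For single passages the background was 4.55% early against early, where Jag1 alone of the 10 was called, and 3.83% late against late, where Jag1 and Hey1 were. For early LM8 against late Dunn it was 2.92%, again with Jag1 and Hey1 called. For late LM8 against early Dunn 5 of the 10 were called (Notch2, Notch4, Jag1, Hey1 and Heyl) against 47.2% of all genes, a share near the background. In that comparison the median over all genes was -0.91. By the looser rule of over 2-fold at an unadjusted p under 0.05, Jag1 and Hey1 were higher in LM8 in all 4 single-passage comparisons. Of all 20144 genes, 302 (1.5%) were. Under normexp Jag1 passed that rule in 1 of the 4 and Hey1 in 2.

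During serial passaging, Jag2 fell in LM8 cells. Its mean went from -4.77 ± 0.06 to -5.96 ± 0.05 (SD, n = 3), a change of -1.19 (SE 0.17, 95% interval -1.60 to -0.79, 2.29-fold, adjusted p = 0.0185), with a median of -0.18 over all genes. It was the only one of the 10 called between late and early LM8, against a background of 2.82%. Within slides the change was -1.22, -1.28 and -1.08.

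The size of the Jag2 change held when single arrays were left out, while its call did not. Its size also depended on the processing. Leaving out any 1 of the 6 arrays gave changes of -1.17 to -1.23, but the call remained only without early LM8 replicate 3 (adjusted p = 0.0409) and was otherwise lost, up to 0.098. It was also lost with the slide as a block (adjusted p = 0.0787) and with normexp correction, where the change was -0.56 (adjusted p = 0.605). With a floor on dim signals the change had no value, since both groups lay at the floor.

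No other member was called in LM8. Hey1 differed by -0.02 between late and early LM8 (95% interval -0.49 to 0.45) and Jag1 by 0.22 (-0.34 to 0.77), so changes over 2-fold lie outside both intervals. Notch4 was lower in late LM8 by -0.76 without overlap, and missed the threshold (adjusted p = 0.161).

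In Dunn cells limma called none of the 10 genes between late and early passage, where the background was 0.00497%. The plain test named in the study's methods called none either. At an unadjusted p under 0.05, 2 of the 10 passed, both over 2-fold: Notch2, at 2.26 with 1 early array, and Hey1, at -1.05. With the outlier spots kept, neither passed: Notch2 was at 0.79 and Hey1 at -0.89 (adjusted p = 0.953 for each). Late Dunn arrays were below all early ones for Hey1 (SE 0.32, 95% interval -1.85 to -0.25, adjusted p = 0.78), with within-slide changes of -1.26, -0.72 and -1.17. With the slide as a block, which pairs the Dunn arrays, the Hey1 change had adjusted p = 0.207 and no member was called. The background for that looser rule was 4.86%. Jag1 was 0.65 above its early level, also with no overlap (adjusted p = 0.782), and the Jag2 change was 0.68 with overlap.

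An interaction fit over 12 arrays asked whether passaging altered the genes unequally in Dunn and LM8. No member was called, against 0.606% of all genes. The estimates, the LM8 change minus the Dunn change, were -1.87 for Jag2 (adjusted p = 0.404), 1.03 for Hey1 (0.5) and -2.46 for Notch2 (0.172, with 1 early Dunn array). These 3 had an unadjusted p under 0.05, and the background of genes that were also over 2-fold was 5.3%. With the outlier spots kept, Jag2 still passed that rule, at -2.01, Notch2 (-0.98, adjusted p = 1) and Hey1 (0.88, adjusted p = 1) no longer did, and Notch3 passed it, at -1.35 (adjusted p = 0.961).

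**Figure D3:**
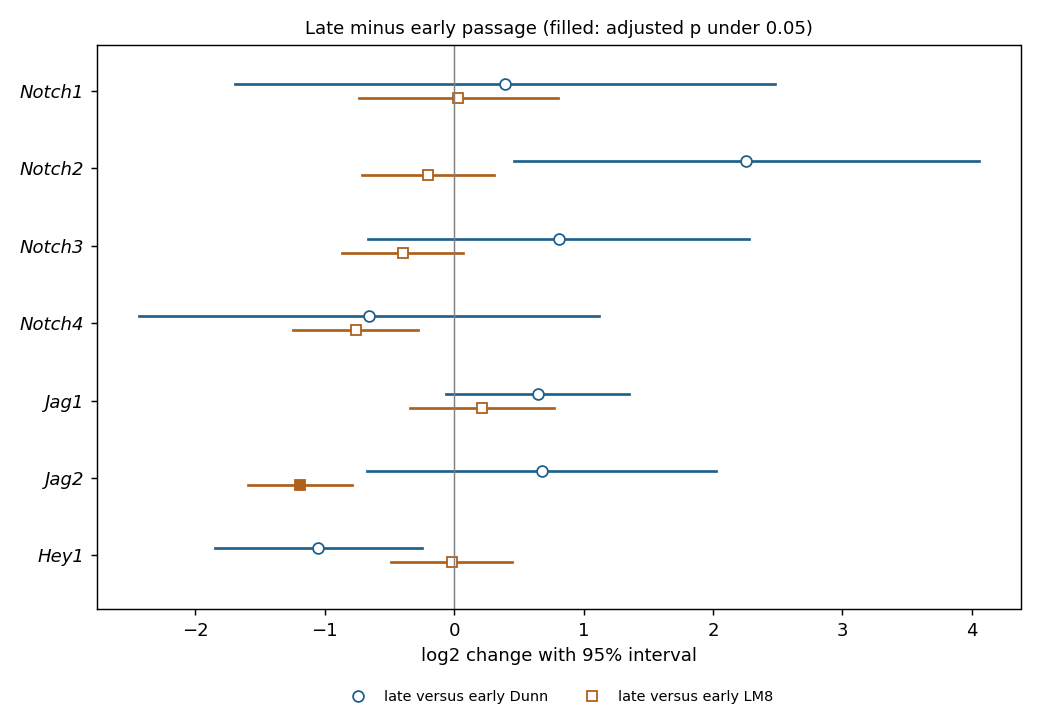
Log2 change, late minus early passage, with its 95% interval (x axis) for the 7 measured genes in Dunn (circles) and LM8 (squares); filled symbols have adjusted p under 0.05. Jag2 in LM8, at -1.19, is the only filled symbol; the Notch2 change in Dunn rests on 1 early array.

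The remaining genes of the pathway were read from lists of 66 genes, of which 63 matched and 55 were well above background on all arrays of at least 1 group. With passages pooled, 6 of the 63 were called higher in LM8, where 5.71% of all genes were, and 11 lower, where 37.9% were. Of the lower ones 8 were well above background. Their median difference was -0.25, against -0.66 over all genes and -0.23 over probes well above background. Of 5 glycosylation genes, Lfng (-0.91, adjusted p = 0.0291) and Rfng (-0.94, 0.0103), both Fringe enzymes that add sugar to Notch, were lower and none was higher, a share of lower calls near that of all genes.

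Cleavage genes moved both ways. Of 8 matched, Furin, the convertase that cuts the receptor precursor, was higher in LM8 (1.57, adjusted p = 0.0111), and Psen2, a catalytic subunit of gamma-secretase, was lower (-0.78, 0.0175). Of 4 genes of ligand endocytosis none was called.

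In the list of the nuclear complex and corepressors, 2 of 22 genes were higher and 3 lower. Rbpjl, a relative of RBPJ that does not bind the Notch intracellular domain, was higher by 1.83 (adjusted p = 0.00195), and the corepressor Ctbp2 by 2.25 (0.0213). For Ctbp2, 2 of 3 arrays were well above background in each Dunn group, and its values spread widely in late Dunn (SD 2.26). The corepressors Tle3 (-1.47, 0.000525) and Ncor1 (-0.997, 0.0101) were lower. Rbpj itself had group means of -0.28, -0.16, -0.38 and -0.71 in early Dunn, late Dunn, early LM8 and late LM8, and was called in no comparison.

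Among 11 negative regulators, the deltex gene Dtx1 (-1.21, adjusted p = 0.0226) and Dtx3 (-0.90, 0.0167) were lower, while Numbl, a relative of Numb (1.46, 0.0304), and Dtx4 (0.69, 0.0305) were higher. Of the 8 other Hes, Hey and Bhlhe genes listed, 3 were well above background, and Hes7, a repressor of the segmentation clock, was higher in LM8 (1.10, 0.0108). Hey2 and Bhlhe41 were called lower, but in no group were all arrays of either gene well above background. The 5 other ligands and ligand-like genes that matched held 1 call, Dner, which was well above background on no array.

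**Figure D4:**
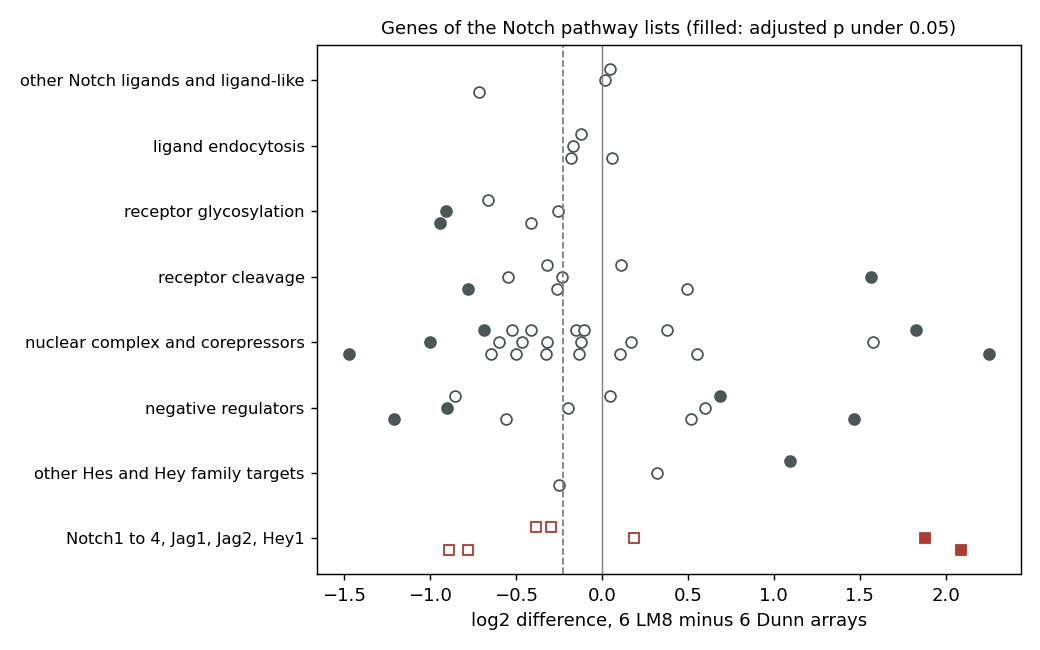
Log2 difference, LM8 minus Dunn with passages pooled (x axis), of each well measured gene in 7 pathway lists (circles) and of the 7 measured members (squares); filled symbols have adjusted p under 0.05, and the dashed line is the median of all probes well above background, -0.23. The filled squares are Jag1 at 1.88 and Hey1 at 2.09. Among the circles Ctbp2 lies farthest to the right at 2.25, with a wide spread in late Dunn (SD 2.26).

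In single passages few of these genes were called. Ctbp2 (2.91, adjusted p = 0.0192) was higher and Tle3 (-1.69, 0.0463) lower early against early, where 4.55% of all genes were called. Rbpjl (2.34, 0.0227) was higher and Egfl7 (-1.30, 0.0388) lower late against late, where 3.83% were called. For early LM8 against late Dunn Rbpjl alone was called (2.21, 0.0356), where 2.92% of all genes were. For late LM8 against early Dunn 4 of the 63 were higher and 16 lower, where 1107 and 8389 of all 20130 genes were, with Dtx1 (-2.06, 0.0152) and Dll3, a ligand that does not activate receptors on other cells (-1.85, 0.0109), among the lower ones.

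With passage, Egfl7, a secreted protein that can bind and inhibit Notch, fell in LM8 by 1.32 on the log2 scale (adjusted p = 0.0308). No other listed gene was called, where 2.82% of all genes were. In Dunn limma called none of the 63, and at an unadjusted p under 0.05 with over 2-fold change 1 was higher and 3 were lower. By that looser rule 4.86% of all genes passed in either direction. The interaction called none, and by the looser rule 3 were higher, where 5.3% of all genes passed in either direction.

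Among 11285 other genes, those most like a member in pattern were found by the root mean square difference of the signals, each centred on its own mean. For Hey1 over 12 arrays these were Kazald1 (0.25), Mapk8ip1 (0.28) and Eno3 (0.36). For Jag1 over 12 arrays they were Faah (0.27), Ldhb (0.27) and Jam3 (0.29). For Notch2 over its 10 arrays they were Dnajb12 (0.21), Rbis (0.26) and Dpy19l3 (0.27). The range of the Notch2 group means, 2.26, rested on the 1 early Dunn array with a value, at -0.94.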

How the data were processed

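RNA of 12 cultures was measured on Agilent mouse 1-colour arrays, 3 for each of 4 groups. Groups and replicate numbers were taken from the sample titles. The authors deposited the output of Agilent Feature Extraction 10.7.3, whose processed signal is an intensity after background subtraction and has no scaling between arrays. They also deposited a table of all arrays that held the same intensities, rounded (largest relative difference 0.497%). The depth of an array has no count. The number of arrays and the brightness over background limit the precision.

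From these files control spots and spots marked as outliers were left out, the deposited intensities were put on the log2 scale, every array was centred on its 75th percentile, and 43020 spots were averaged into 39429 probes. Probes were named by accession through a RefSeq gene table, and 26581 (67.4%) matched. A gene took the value of its probe with the highest mean. limma 3.58.1 in R 4.3.3 fitted the arrays compared, over all probes. The pooled comparison used 6 arrays a line, and the interaction used 12 arrays. limma was also run on simulated data for the passage comparisons within Dunn and within LM8, with random variation drawn independently for each array. That run did not cover the comparisons between the lines.

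Members, lists and tests were chosen with earlier results of these data known. The text names all 10 members and, from the lists, called genes that every array of the higher group had well above background, at most 4 per list and comparison, the largest changes first; Rbpj, Dner, Hey2, Bhlhe41 and the cell type markers given with values were added after their values were seen. Alternatives were quantile normalization, normexp with an offset of 50 on median foreground and background (a mean foreground was not in the files), the deposited table, a filter and a floor on dim signals, the mean of a gene's probes, 1 fit over 12 arrays, the slide as a block, the methods' t-test and leaving out each array. Keeping outlier spots and leaving out slide 1 were added after seeing the data. Replicate numbers coincide with the slides. Deviations of same-numbered arrays from their group means correlated at 0.683, 0.641 and 0.222 between early and late Dunn, all over 0.1, so the numbers pair that comparison alone. The gene annotation of the files names another build than the promoter table, so no gene coordinates are given. The RNA kit differs between the labels and the paper.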

Additional observations from a re-analysis of the deposited data

How the results depend on the processing

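With passages pooled, Jag1 and Hey1 were called higher in LM8 under all 11 alternatives, with differences of 0.76 to 3.05 and 1.39 to 3.25. Of 537 recomputed differences of measured members in the passage, pooled and interaction comparisons, 483 kept direction and side of the threshold, 10 lost the call, 8 gained it and 36 changed sign, none of the latter from a called value. Dim probes, the outlier spots of Notch2 and 3 arrays a group limit what can be told; the causes of the shifts below were not tested.

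Replicate numbers, which mark slides, paired early with late Dunn arrays. In every other comparison at least 1 pair of same-numbered arrays had a correlation of deviations of 0.1 or less; over all 18 pairs it ran from -0.23 to 0.68. With the slide as a replicate block the numbers of members called were 0 for Dunn passage, 0 for LM8 passage, 0 early against early, 0 late against late, 0 for early LM8 against late Dunn, 3 pooled and 5 for late LM8 against early Dunn. Shares over all genes are not given for the blocked fits, so these counts are not set against a background. In the main fits the shares were 43.6% pooled and 47.2% for late LM8 against early Dunn.

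The number called for LM8 passage was 0 under normexp, the deposited table, the floor, 1 fit over 12 arrays and without slide 1. The pooled number was 8 under normexp, where 867 of all 20143 genes were called higher and 12081 lower. Early against early it was 2 with quantile normalization, 0 with normexp, 4 on the deposited table, 3 with the filter, 3 in 1 fit over 12 arrays and 0 without slide 1. Of all 20130 genes, 600 were called higher and 1430 lower there with quantile normalization, 16 and 137 with normexp, and 1808 and 182 on the deposited table. Late against late it was 1 with normexp and 1 on the deposited table. Of all 20143 genes, 266 were called higher and 534 lower there with normexp, and 317 and 185 on the deposited table. For early LM8 against late Dunn it was 1 with quantile normalization, normexp, the deposited table and without slide 1. Of all 20143 genes, 467 were called higher and 517 lower there with quantile normalization, 266 and 405 with normexp, and 273 and 186 on the deposited table. For late LM8 against early Dunn it was 2 with the floor and 3 with the methods' t-test, outlier spots kept or without slide 1. Shares over all genes are not given for settings other than the scalings, so those counts are not set against a background. The interaction called 1 (Notch2) with the filter.

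Signs changed in these cases. For Dunn passage, normexp gave Notch1 -0.65, Jag1 -0.52 and Jag2 -0.89, the deposited table Notch4 0.31, and fits without slide 1 Notch1 -0.43. For LM8 passage Notch1 was -0.030 with quantile normalization, -0.24 with normexp, -0.24 as the mean of probes and -0.39 without slide 1, and the deposited table gave Notch2 0.16 and Hey1 0.34. Pooled, Jag2 was 0.42 with quantile normalization, the deposited table gave Notch1 0.28, Notch3 0.87, Notch4 0.39 and Jag2 0.79, and Notch2 was -0.65 without slide 1. For the interaction, quantile normalization gave Notch4 0.06 and Jag1 0.026, normexp Notch1 0.41, Notch4 0.56, Jag1 0.58 and Jag2 0.34, the floor Notch4 0.090, and fits without slide 1 Notch1 0.038 and Notch4 0.63.

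Leaving out 1 array at a time, members called ranged from 0 to 1 for LM8 passage, 2 to 5 pooled (2, Jag1 and Hey1, without early Dunn replicate 1 or 3, late Dunn replicate 1, early LM8 replicate 3 or any late LM8 replicate, and 5 without late Dunn replicate 2), 0 to 4 early against early (4 without early Dunn replicate 2), 0 to 4 late against late (4 without late Dunn replicate 1), 0 to 2 for early LM8 against late Dunn, 0 to 5 for late LM8 against early Dunn and 0 to 1 for the interaction (1, Notch2, without late Dunn replicate 1). Shares over all genes are not given for these fits, so the counts are not set against a background and are no result about the members. Jag1 lost its call early against early without early Dunn replicate 3 (adjusted p = 0.058) or any early LM8 replicate (0.0889 to 0.103). It lost it late against late without late Dunn replicate 2 or 3 or any late LM8 replicate (0.0839 to 0.229), for early LM8 against late Dunn without late Dunn replicate 2 or 3 or any early LM8 replicate (0.116 to 0.236), and for late LM8 against early Dunn without late LM8 replicate 2 (0.0657) or 3 (0.0676). Hey1 lost it late against late without late LM8 replicate 2 (0.051) or 3 (0.052), for early LM8 against late Dunn without late Dunn replicate 3 (0.0527) or any early LM8 replicate (0.0519 to 0.06), and for late LM8 against early Dunn without early Dunn replicate 3 (0.0703) or any late LM8 replicate (0.0596 to 0.0939). Differences that changed sign ranged from -0.27 to 1.10 for Notch1 in Dunn passage, -0.32 to 0.23 for Notch1 and -0.094 to 0.083 for Hey1 in LM8 passage, -0.38 to 0.49 for Notch2 pooled, and -1.07 to 0.31 for Notch1 and -0.56 to 0.67 for Notch4 in the interaction. With the floor, Jag2 in LM8 passage had no value, since both groups lay at it.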
